A study of Mus musculus with 6 samples.

Results

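Matrix metalloproteinases (MMPs), ADAMTS proteases, the ADAMTS-like proteins and the tissue inhibitors of metalloproteinases (TIMPs) were followed in the inguinal white fat, a depot under the skin of the groin, of C57BL/6 mice. Genes were taken from the deposited count table when their symbol was Mmp, Timp, Adamts or Adamtsl followed directly by a number, with a or b allowed after it. This gave 51 of 52550 genes, made up of 23 MMP, 19 ADAMTS, 5 ADAMTS-like and 4 TIMP genes. The A2B1 group (3 libraries) came from fat injected with an adeno-associated virus (AAV) for the mouse Hnrnpa2b1 coding sequence, whose product is an RNA-binding protein with a part in splicing and RNA transport. The control group (3 libraries) came from fat injected with an AAV that the sample labels call a scrambled control and the series' design text calls GFP. Both groups therefore received a virus by injection into the fat. The sources used here do not give the promoter that drives the insert, the age and sex of the mice or the time after injection. Whether the 3 libraries of a group stand for 3 mice is not stated in the labels either, and the p-values below measure only how far these libraries spread, part of which may be technical.

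MMPs are zinc-dependent proteases that cut collagens, elastin, laminins and other proteins outside the cell, and most are secreted as inactive proenzymes. ADAMTS proteases share a related zinc site and carry thrombospondin repeats that tie them to the matrix, where they trim proteoglycans, process procollagens or cleave other matrix glycoproteins. ADAMTS-like proteins keep the thrombospondin repeats but have no protease domain, and TIMPs bind and block the active sites of MMPs and of some ADAMTS proteases. In adipose tissue these enzymes take part in the remodelling of the matrix around growing fat cells.

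Total counts ranged from 72961324 to 86663359 per library, and the members held between 0.161% and 0.237% of them. Hnrnpa2b1 itself had 763, 789 and 748 CPM (counts scaled to a common library size, with TMM factors) in A2B1 libraries 1 to 3, against 555, 525 and 605 CPM in control libraries 1 to 3. The groups did not overlap, but the log2 fold change of 0.45 (SE 0.09) did not pass the threshold of 0.05 (edgeR quasi-likelihood test, adjusted p = 0.0654), while it passed in DESeq2 (adjusted p = 0.000113) and limma-voom (adjusted p = 0.0496). Adipocyte markers (10 genes) summed to between 37076 and 39234 CPM in A2B1 libraries and between 34046 and 41258 CPM in control libraries. Markers of stromal, vascular and immune cells were present too, so the libraries hold whole tissue although the labels name adipocytes as their source. The adipocyte sum leans on Fabp4, at 15699 to 17450 CPM per library. Of these 10 markers edgeR called 2 lower, Lep (log2 fold change -1.90, adjusted p = 0.0166) and Cidec (-0.62, adjusted p = 0.0497), and 0 higher. Over all tested genes 1.33% were called lower. Positive log2 fold changes were found for 6 of the 10, among them Cfd at 1.34 (adjusted p = 0.170). Some libraries stood apart. The summed level of 10 liver markers, a list added after the values were seen, was 12904, 115 and 1562 CPM in A2B1 libraries 1 to 3 and 150 to 257 CPM in controls. Lymphocyte markers summed to 265 CPM in control library 1, against 10.8 to 38.6 CPM in the other controls and 6.50 to 17.4 CPM in A2B1 libraries. Skeletal muscle markers summed to 206 CPM in control library 3, and to 27.0 to 43.5 CPM in the other 5 libraries. Results are therefore also given without A2B1 library 1 and control library 1, and without A2B1 libraries 1 and 3.

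The comparison asked which of these genes differ between fat given Hnrnpa2b1 and fat given the control virus. Mmp12, the macrophage metalloelastase, fell 5.39-fold and was the only member past the threshold in the edgeR test. Members with the next smallest p-values were Adamtsl2, Adamts16, Mmp2, Adamts2, Timp2, Adamts5 and Adamts7, each with a lower level in every A2B1 library than in any control, and with adjusted p-values between 0.0596 and 0.0872. The highest log2 fold changes among members with more than 2 CPM on average belonged to Adamts15, at 0.50 (SE 0.25, adjusted p = 0.277), and Mmp9, at 0.31 (SE 0.34, adjusted p = 0.612). Of the 51 members, 41 had enough counts to be tested. Of these 41, 1 was called lower and 0 were called higher, where 1.82% of all 19146 tested genes were called, 1.33% lower and 0.496% higher. At an adjusted p under 0.1 the count was 8 members, all lower, against 4.17% of all genes in that direction. An unadjusted p under 0.05 was found for 13 members, all lower, and for 12.7% of all tested genes in that direction and 11.5% in the other. The groups did not overlap for 13 members, all lower in A2B1 libraries, and for 15.5% of all genes in that direction and 15.1% in the other. Log2 fold changes were negative for 37 of the 41 tested members, with a median of -0.38, and for 49.7% of all tested genes, with a median of 0.00206. DESeq2 called 10 members lower and 0 higher, against 8.29% and 6.96% of all genes, and limma-voom called 2 lower (Mmp12 and Mmp2) and 0 higher, against 1.83% and 0.857%. With only genes of at least 1 CPM in 3 libraries, edgeR called 3 members lower (Mmp12, Adamts16 and Adamtsl2), against 2.31% of all genes. The median of the members was -0.41 without A2B1 library 1 and control library 1, where 0 members were called and 11 had an unadjusted p under 0.05.

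**Figure D1:**
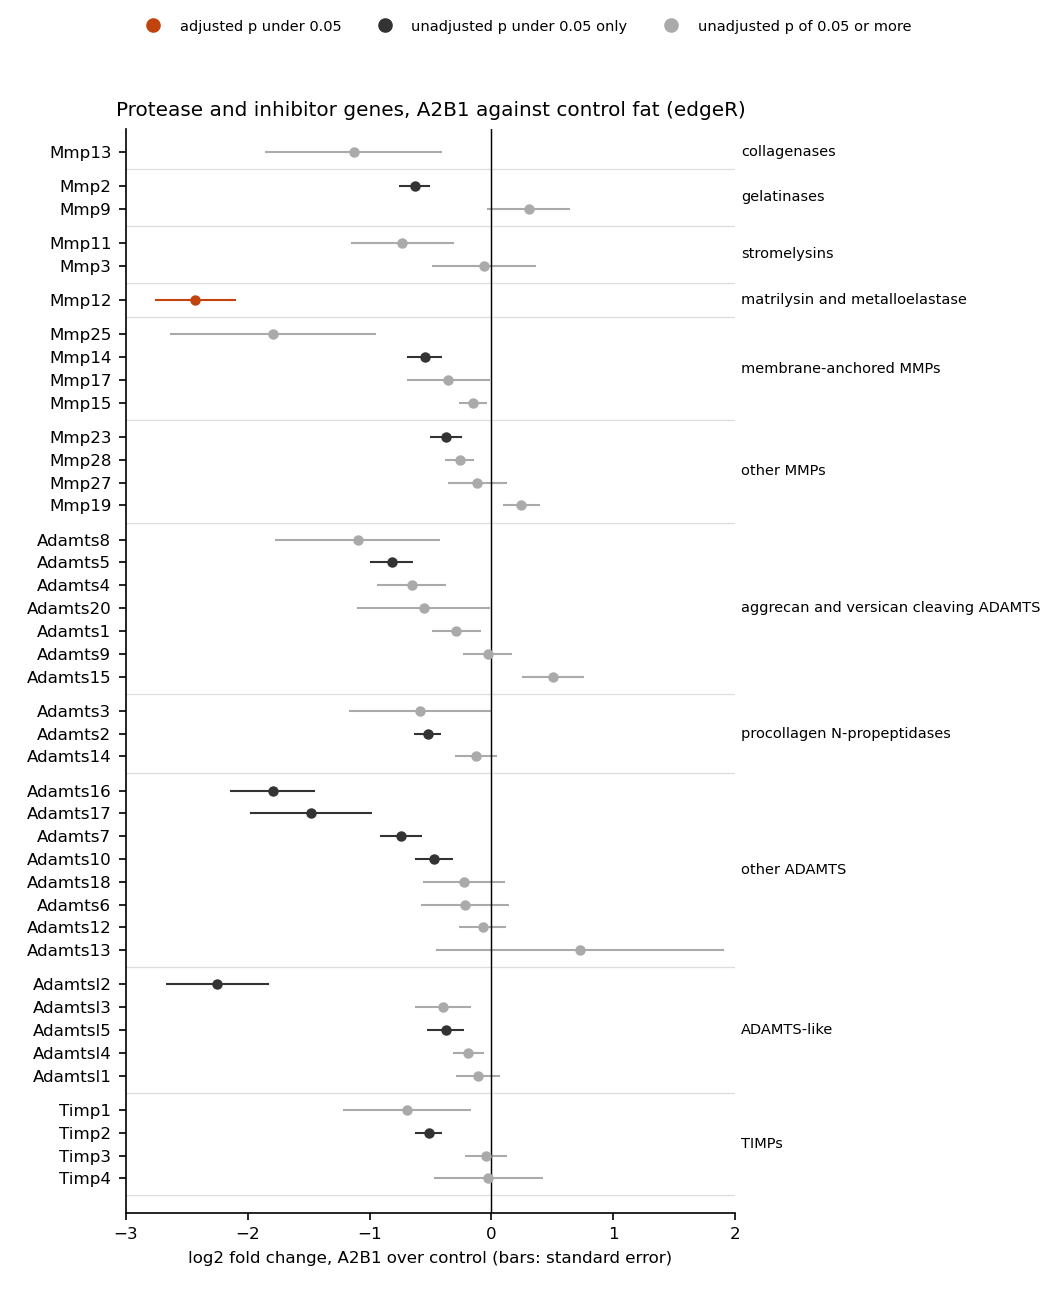
Log2 fold change of each of the 41 tested members (points, with bars of 1 standard error), A2B1 over control, grouped by role. Mmp12 alone passed the threshold, and 37 of 41 points lie left of 0.

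Mmp12 (ENSMUSG00000049723, mm10 chromosome 9, 7344381 to 7369499, plus strand) encodes an elastase that macrophages secrete. It had 3.79, 7.40 and 5.67 CPM in A2B1 libraries 1 to 3, against 42.0, 24.3 and 24.6 CPM in control libraries 1 to 3. Every A2B1 library lay below every control, and control library 1 was the highest. The means were 5.62 ± 1.80 CPM in A2B1 libraries and 30.3 ± 10.1 CPM in controls (SD, n = 3 each; log2 fold change -2.43, SE 0.33, adjusted p = 0.0335). The exact permutation p of the CPM, two-sided, was 0.1, below which 3 against 3 cannot go. Adjusted p-values were 1.03e-11 in DESeq2 and 0.0273 in limma-voom. The call was lost in each of the 6 fits without 1 library (adjusted p 0.0645 to 0.136, log2 fold change -2.68 to -2.12). Without A2B1 library 1 and control library 1 the log2 fold change was -1.90 (adjusted p = 0.0661), and without A2B1 libraries 1 and 3 it was -2.01 (adjusted p = 0.366). Over all alternatives the adjusted p lay between 1.03e-11 and 0.366.

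Macrophage markers, as a sum, were lower in every A2B1 library than in any control, as Mmp12 was. The sum of 10 of them was 373, 586 and 286 CPM in A2B1 libraries 1 to 3, against 982, 729 and 662 CPM in control libraries 1 to 3. All 10 markers had negative log2 fold changes, 0 passed the edgeR threshold, 5 had an unadjusted p under 0.05 and DESeq2 called 5 lower. Among them were Adgre1, the gene of the macrophage antigen F4/80, at -1.04 (adjusted p = 0.235), Trem2 at -1.90 (adjusted p = 0.113) and Itgax at -1.53 (adjusted p = 0.146). The smallest changes were those of Fcgr1 at -0.12 (adjusted p = 0.908) and Mertk at -0.38 (adjusted p = 0.374). Set against the marker sum of its own library, Mmp12 had 10.2, 12.6 and 19.9 CPM per 1000 CPM of macrophage markers in A2B1 libraries, against 42.8, 33.4 and 37.2 in controls. These ratios, chosen after the values were seen, did not overlap either (exact permutation p = 0.1). They depend on the most abundant markers. Lyz2 made up 178, 239 and 108 CPM of the sum in A2B1 libraries and 481, 318 and 289 CPM in controls. Trem2 had at most 16.5 CPM in any library, and ratios to single markers such as Trem2 were not tested. In bulk tissue, fewer cells of a type and less RNA per cell cannot be told apart, here or in the results that follow.

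**Figure D2:**
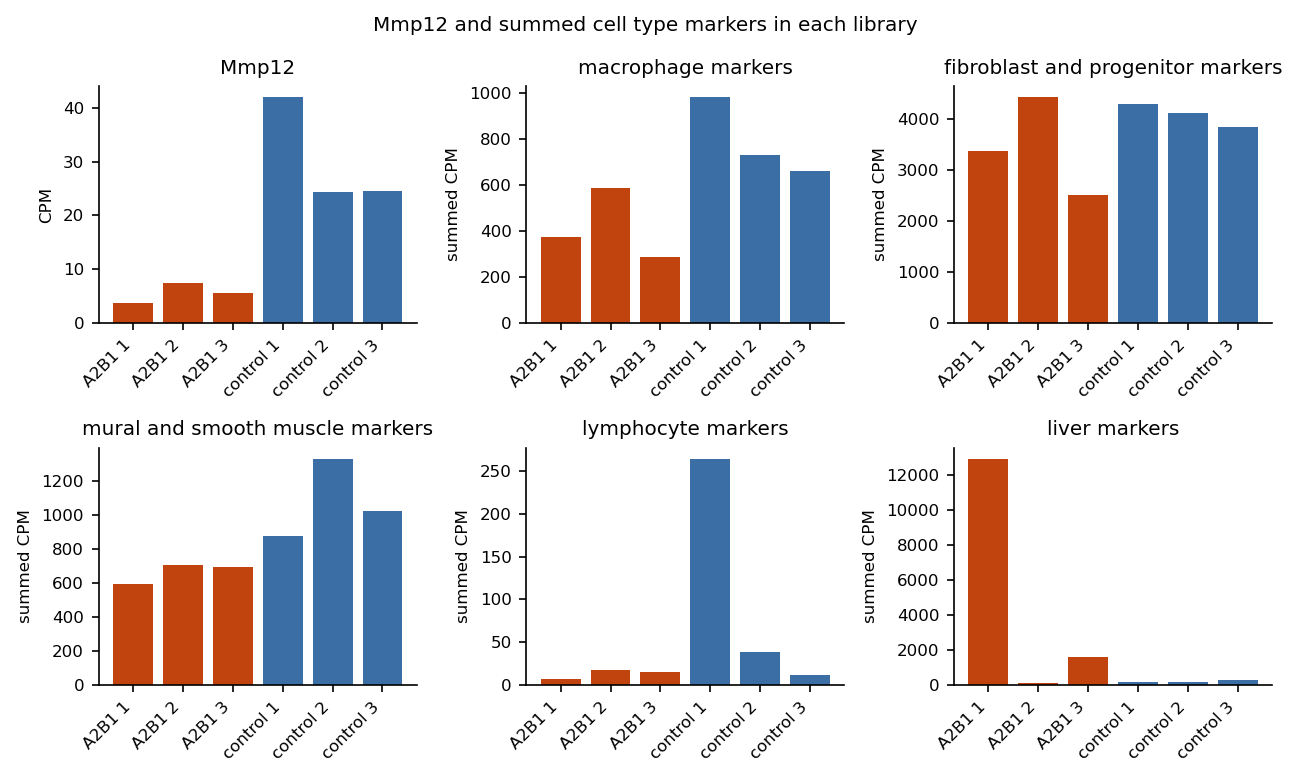
Mmp12 in CPM and the summed CPM of 5 marker lists in each library (bars, A2B1 left and control right). Mmp12 and the macrophage sum are lower in all 3 A2B1 libraries, while control library 1 is highest for lymphocyte markers and A2B1 library 1 for liver markers.

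Mmp12 lies in a cluster of 10 MMP genes that spans 427 kb of chromosome 9, from 7272514 to 7699585 (mm10, GENCODE M21), in the order Mmp13, Mmp12, Mmp1b, Mmp3, Mmp1a, Mmp10, Mmp8, Mmp27, Mmp20 and Mmp7. Only 4 of the 10 had enough counts to be tested. Mmp3, a stromelysin that cuts many matrix proteins and activates other MMPs, had 41.8, 77.6 and 26.0 CPM in A2B1 libraries and 65.3, 47.9 and 38.7 CPM in controls. These values overlapped, with A2B1 libraries 2 and 3 at the extremes (log2 fold change -0.06, SE 0.43, adjusted p = 0.946). Mmp13, the main collagenase of rodents, had 0.275, 0.151 and 0.699 CPM in A2B1 libraries and 0.955, 1.22 and 0.287 CPM in controls (log2 fold change -1.13, SE 0.72, adjusted p = 0.379). Mmp27, a little-studied relative, averaged 3.04 ± 0.828 CPM in A2B1 libraries and 3.30 ± 0.361 CPM in controls (SD, n = 3 each; adjusted p = 0.804). Counts of Mmp1a, Mmp1b, Mmp7 and Mmp20 were 0 in all 6 libraries, and Mmp10 had 4 counts in 1 control library. Mmp8, the neutrophil collagenase, had 32, 20 and 5 counts in A2B1 libraries against 5, 0 and 0 in controls and did not pass the filter on low counts with all 6 libraries. Its adjusted p was 0.247 with no filter, and between 0.17 and 0.545 in the 5 fits with fewer libraries whose filter it passed, with a positive log2 fold change in each. The exons of Mmp12 share 157 bases with Mmp1b on the other strand, and no source used here says whether the counting used strand.

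The sequences around the start sites of cluster genes are shown because their motifs differed from those of the other members that could be searched. AP-1, the Fos and Jun dimer, is known to act on many MMP promoters. Windows from 250 bases before to 50 bases after the start site (RefSeq, GRCm38.p6, the assembly also called mm10) were searched on both strands for the AP-1 motif TGANTCA, the TATA motif TATAAA and the GC box GGGCGG. A window was at hand for 36 members. Members outside the cluster without a window, Mmp2, Mmp9, Mmp19, Adamts5, Adamts7 and Adamts16 among them, were not searched. An AP-1 match was found in 8 of the 10 cluster genes and in 0 of the 26 members outside the cluster. A TATA match was found in 9 of the 10 and in 3 of the 26, and a GC box in 0 of the 10 and in 22 of the 26. Of 32851 windows of all genes, 7.81% held the AP-1 motif, 13.6% the TATA motif and 35.7% the GC box. Matches are printed in capitals, in the strand of the gene, for the start of Mmp12 that held matches (its other start had none), for the cluster genes Mmp3 and Mmp13, and for Adamtsl2, Mmp14 and Timp2, members outside the cluster that are described below.
Mmp12, chr9:7347124-7347423, plus strand: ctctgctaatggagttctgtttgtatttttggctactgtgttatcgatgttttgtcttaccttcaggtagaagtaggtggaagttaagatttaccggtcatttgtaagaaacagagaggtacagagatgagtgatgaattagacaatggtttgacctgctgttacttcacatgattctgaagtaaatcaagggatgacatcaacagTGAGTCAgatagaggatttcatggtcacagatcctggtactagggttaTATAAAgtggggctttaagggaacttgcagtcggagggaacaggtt
Mmp3, chr9:7445572-7445871, plus strand: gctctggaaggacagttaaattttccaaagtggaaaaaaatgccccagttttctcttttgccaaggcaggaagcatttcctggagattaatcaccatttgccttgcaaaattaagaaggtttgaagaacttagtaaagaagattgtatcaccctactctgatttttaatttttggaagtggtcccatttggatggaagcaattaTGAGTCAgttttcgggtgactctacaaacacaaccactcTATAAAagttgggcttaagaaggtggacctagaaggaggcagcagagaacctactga
Mmp13, chr9:7272264-7272563, plus strand: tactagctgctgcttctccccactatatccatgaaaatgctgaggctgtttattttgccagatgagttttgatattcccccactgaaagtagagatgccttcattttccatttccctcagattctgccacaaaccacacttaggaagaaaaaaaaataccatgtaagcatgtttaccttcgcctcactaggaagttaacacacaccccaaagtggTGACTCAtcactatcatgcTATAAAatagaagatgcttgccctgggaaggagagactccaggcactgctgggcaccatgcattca
Adamtsl2, chr2:27079129-27079428, plus strand: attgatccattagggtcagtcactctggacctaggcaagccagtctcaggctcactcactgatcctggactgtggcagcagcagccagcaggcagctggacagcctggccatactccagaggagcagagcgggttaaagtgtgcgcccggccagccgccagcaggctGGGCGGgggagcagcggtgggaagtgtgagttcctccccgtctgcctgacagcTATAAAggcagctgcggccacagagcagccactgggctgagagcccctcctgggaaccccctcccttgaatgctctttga
Mmp14, chr14:54431348-54431647, plus strand: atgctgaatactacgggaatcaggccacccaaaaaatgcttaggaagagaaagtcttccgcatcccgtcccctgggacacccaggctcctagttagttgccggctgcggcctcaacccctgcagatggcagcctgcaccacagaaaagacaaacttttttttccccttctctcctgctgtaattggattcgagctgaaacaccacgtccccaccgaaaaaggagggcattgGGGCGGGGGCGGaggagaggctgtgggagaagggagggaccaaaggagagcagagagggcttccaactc
Timp2, chr11:118355362-118355661, minus strand: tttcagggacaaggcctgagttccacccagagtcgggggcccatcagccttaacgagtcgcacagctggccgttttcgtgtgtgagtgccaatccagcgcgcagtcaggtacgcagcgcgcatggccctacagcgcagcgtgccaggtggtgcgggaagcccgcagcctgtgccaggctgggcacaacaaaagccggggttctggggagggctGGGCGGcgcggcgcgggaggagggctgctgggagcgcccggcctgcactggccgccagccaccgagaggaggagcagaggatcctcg

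In Mmp12 the AP-1 match begins 44 bases before the annotated start and the TATA match 4 bases after it. In Mmp3 they begin 46 and 7 bases before the start, and in Mmp13 35 and 16 bases before it. The order is the same in all 3, with the AP-1 match before the TATA match. Adamtsl2 has a TATA match 30 bases and a GC box 83 bases before its start. In Mmp14 the capitals are 2 GC boxes that adjoin, and in Timp2 they are 1 GC box. A match is a run of letters and not a measured binding site.

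**Figure D3:**
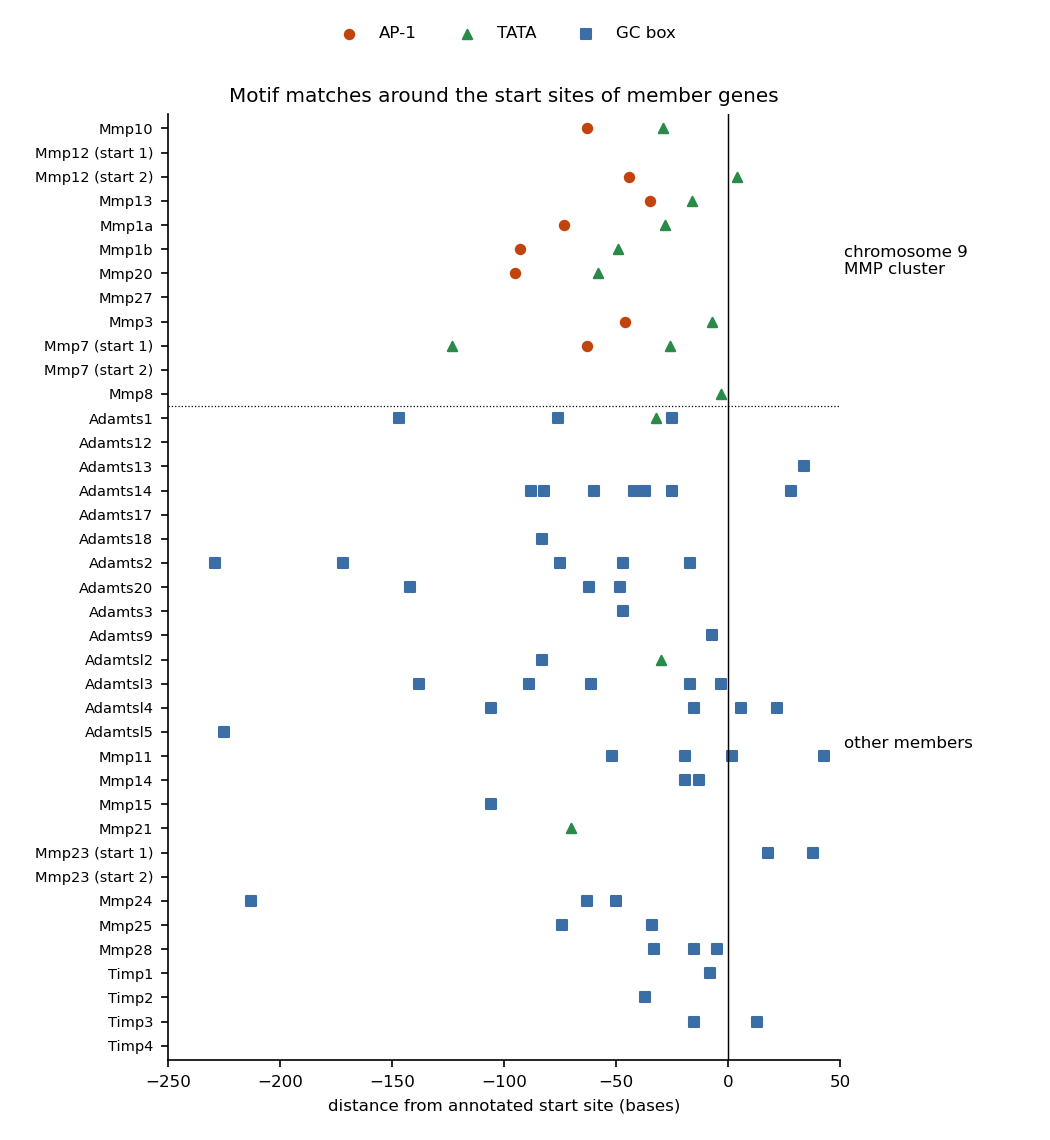
Position of each AP-1, TATA and GC box match (markers) relative to the annotated start site, in bases, for the 39 windows of 36 member genes. The 8 AP-1 matches lie in the chromosome 9 cluster (upper rows), and GC boxes lie in 22 of the 26 genes below the dotted line.

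Outside the cluster, Mmp2 and Mmp14 were the MMPs with the smallest p-values. Mmp2, gelatinase A, which cuts denatured collagen and basement membrane collagen, had 84.4, 113 and 98.0 CPM in A2B1 libraries 1 to 3, against 151, 164 and 143 CPM in control libraries 1 to 3. The groups did not overlap, with A2B1 library 1 the lowest and control library 2 the highest. Its log2 fold change was -0.63 (SE 0.12, adjusted p = 0.065), and its adjusted p was 0.000434 in DESeq2 and 0.0467 in limma-voom. Mmp14, the membrane-anchored MT1-MMP that activates pro-MMP2, had 35.6, 44.0 and 47.0 CPM in A2B1 libraries, against 66.3, 66.6 and 52.2 CPM in controls. Again the groups did not overlap (log2 fold change -0.55, SE 0.14, adjusted p = 0.106, and 0.012 in DESeq2). Mmp9, gelatinase B, which neutrophils and macrophages make, had 4.82, 7.17 and 4.85 CPM in A2B1 libraries and 4.51, 6.36 and 2.76 CPM in controls, which overlapped. The pair of gelatinases therefore had log2 fold changes of opposite sign, and the difference between them was not tested.

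Among the other membrane-anchored enzymes, Mmp15 and Mmp17 had log2 fold changes of -0.15 (SE 0.11) and -0.35 (SE 0.34), with overlapping groups. Mmp25, a leukocyte MMP held by a lipid anchor, had 12, 38 and 29 counts in A2B1 libraries and 194, 71 and 23 counts in controls. Control library 1 held most of the control counts, and the log2 fold change of -1.79 (SE 0.84, adjusted p = 0.253) was -0.30 without A2B1 library 1 and control library 1. Mmp16 and Mmp24 were too low to test, with 5 and 6 counts over the A2B1 libraries and 25 and 43 counts over the controls, where control library 2 alone held 41 of the 43 counts of Mmp24. Mmp23 had 6.07, 6.01 and 5.54 CPM in A2B1 libraries, against 7.58, 8.10 and 7.07 CPM in controls. The groups did not overlap (log2 fold change -0.37, SE 0.13, adjusted p = 0.17, and 0.0438 in DESeq2). Mmp28, or epilysin, averaged 45.1 ± 6.10 CPM in A2B1 libraries and 54.0 ± 4.67 CPM in controls (SD, n = 3 each; adjusted p = 0.247). Mmp11, stromelysin 3, had 3.33, 4.25 and 10.1 CPM in A2B1 libraries and 9.86, 10.7 and 8.78 CPM in controls. A2B1 library 3 lay among the controls, and the log2 fold change was -0.73 (SE 0.42, adjusted p = 0.332) with it and -1.36 (adjusted p = 0.102) without it. Mmp19, present in many tissues, had 124, 103 and 88.6 CPM in A2B1 libraries and 102, 82.0 and 82.9 CPM in controls, with overlap (log2 fold change 0.24, SE 0.15, adjusted p = 0.362). The count of Mmp19 is uncertain, because 22.3% of its exon bases overlap Tmem198b on the other strand. Mmp21 had at most 3 counts in any library.

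**Figure D4:**
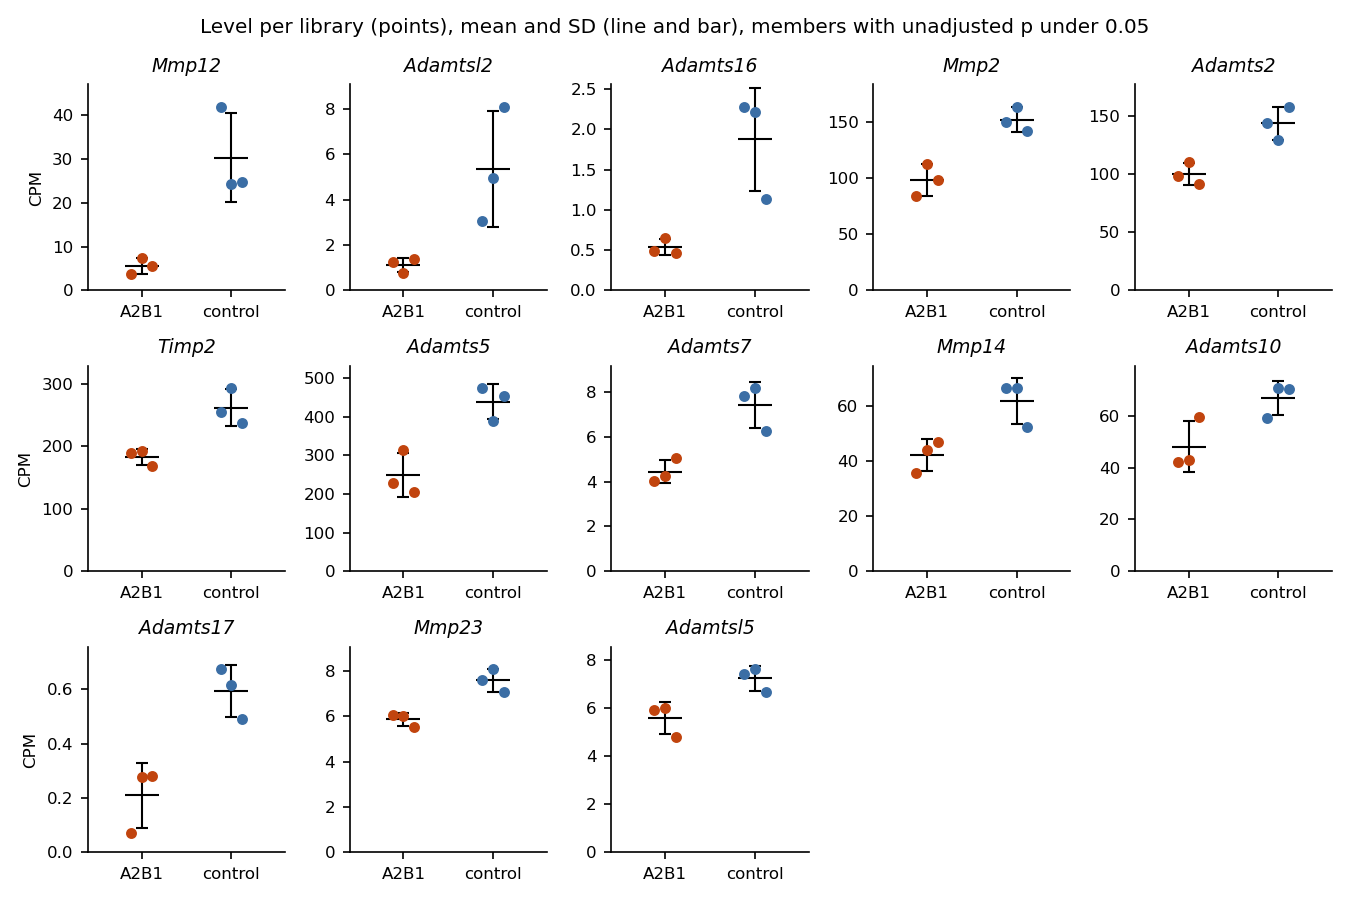
CPM in each library (points), with the mean (line) and SD (bar) of each group, for the 13 members with an unadjusted p under 0.05. The groups are apart in 12 panels, and in Adamts10 A2B1 library 3 (59.3 CPM) lies just above control library 1 (59.0 CPM).

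The ADAMTS proteases that cleave aggrecan and versican were led by Adamts5. Adamts5, or aggrecanase 2 (ENSMUSG00000022894, chromosome 16, 85856173 to 85901828), had 228, 313 and 205 CPM in A2B1 libraries 1 to 3, against 475, 388 and 454 CPM in control libraries 1 to 3. The highest A2B1 library, 2, stayed below the lowest control, also 2. The log2 fold change was -0.82 (SE 0.18, adjusted p = 0.0742, and 0.000766 in DESeq2), and it was -0.47 without A2B1 libraries 1 and 3. Its neighbour Adamts1 (85793827 to 85803113), within the same 108 kb, averaged 51.5 ± 10.4 CPM in A2B1 libraries and 62.9 ± 12.2 CPM in controls (SD, n = 3 each), with overlapping groups (log2 fold change -0.29, SE 0.20, adjusted p = 0.422). Adamts4, aggrecanase 1, had 3.92, 4.72 and 3.01 CPM in A2B1 libraries and 7.09, 7.14 and 4.12 CPM in controls. The groups overlapped through A2B1 library 2 and control library 3 (log2 fold change -0.65, SE 0.28, adjusted p = 0.219). Adamts15 had 29.7, 27.3 and 17.2 CPM in A2B1 libraries and 20.4, 18.8 and 13.2 CPM in controls, which overlapped through A2B1 library 3. Adamts9 averaged 64.2 ± 11.5 CPM in A2B1 libraries and 65.6 ± 14.5 CPM in controls (SD, n = 3 each; log2 fold change -0.03, SE 0.20). Adamts20 had at most 1.36 CPM in any library, with overlapping groups. Adamts8 had 1, 11 and 13 counts in A2B1 libraries, against 19, 22 and 18 counts in controls, which did not overlap (log2 fold change -1.10, SE 0.68, adjusted p = 0.36). In all, edgeR and limma-voom called 0 of the 7 genes of this role, DESeq2 called 1 lower (Adamts5, also the 1 with an unadjusted p under 0.05), and 6 of 7 had negative values. Over all tested genes DESeq2 called 8.29% lower, 12.7% were lower with an unadjusted p under 0.05, and 49.7% had negative values.

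Adamts2, which removes the amino-terminal propeptide of fibrillar procollagens, had 98.5, 110.2 and 91.2 CPM in A2B1 libraries 1 to 3, against 144, 129.6 and 158 CPM in control libraries 1 to 3. All 3 A2B1 libraries lay below the controls (log2 fold change -0.52, SE 0.11, adjusted p = 0.0717, and 0.00202 in DESeq2). The related propeptidases Adamts14 and Adamts3 had log2 fold changes of -0.12 (SE 0.17) and -0.58 (SE 0.59) with overlapping groups, and Adamts3 had at most 34 counts in any library.

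Of the other ADAMTS genes, Adamts16 had the lowest value. It had 34, 52 and 35 counts in A2B1 libraries, against 172, 197 and 95 counts in controls, or 0.492, 0.654 and 0.471 CPM against 2.28, 2.21 and 1.13 CPM. The groups did not overlap, and control library 3 was the lowest control (log2 fold change -1.80, SE 0.35, adjusted p = 0.063, and 0.000367 in DESeq2). Adamts17 had 5, 22 and 21 counts in A2B1 libraries and 51, 55 and 41 counts in controls (log2 fold change -1.48, SE 0.50, adjusted p = 0.162). Adamts7, an enzyme of cartilage matrix and the vessel wall, had 4.04, 4.24 and 5.03 CPM in A2B1 libraries, against 7.82, 8.18 and 6.26 CPM in controls, with no overlap (log2 fold change -0.74, SE 0.17, adjusted p = 0.0872). Adamts10, which binds the microfibril protein fibrillin-1, had 42.0, 43.0 and 59.3 CPM in A2B1 libraries and 59.0, 70.8 and 70.4 CPM in controls (log2 fold change -0.47, SE 0.16, adjusted p = 0.158). Its groups met at A2B1 library 3 and control library 1. Adamts12, Adamts6 and Adamts18 had log2 fold changes of -0.07 (SE 0.19), -0.21 (SE 0.36) and -0.23 (SE 0.34), all with overlapping groups. Adamts13, the protease of von Willebrand factor, which liver cells make, had 37, 0 and 10 counts in A2B1 libraries and 11, 16 and 6 counts in controls. Its highest count stood in A2B1 library 1, which also had the most liver transcripts, and the log2 fold change of 0.73 (SE 1.18) was -0.96 without that library. Adamts19 was at 0 counts throughout the A2B1 group, against 6, 5 and 6 counts in controls, too few for the test.

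ADAMTS-like proteins are bound to microfibrils and have no protease domain. Adamtsl2 (ENSMUSG00000036040, chromosome 2, 27079379 to 27108981), which interacts with fibrillin-1 and a latent TGF-beta binding protein, had 85, 62 and 102 counts in A2B1 libraries 1 to 3, against 229, 442 and 678 counts in control libraries 1 to 3. In CPM these were 1.23, 0.780 and 1.37, against 3.04, 4.96 and 8.10. Every A2B1 library lay below every control, and the controls differed among themselves by more than the A2B1 libraries did. The level was 4.76-fold lower (log2 fold change -2.25, SE 0.42), with adjusted p-values of 0.0596 (edgeR), 6.54e-06 (DESeq2) and 0.0523 (limma-voom). It was -2.60 without A2B1 library 1 and control library 1 (adjusted p = 0.124) and -2.76 without A2B1 libraries 1 and 3 (adjusted p = 0.402). Adamtsl5 had 5.92, 5.97 and 4.80 CPM in A2B1 libraries and 7.40, 7.63 and 6.64 CPM in controls, again without overlap (log2 fold change -0.38, SE 0.15, adjusted p = 0.2). Adamtsl1, Adamtsl3 and Adamtsl4 had log2 fold changes of -0.11 (SE 0.18), -0.40 (SE 0.23) and -0.19 (SE 0.13), with overlapping groups.

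Of the 4 TIMPs, 1 was lower without overlap, where 15.5% of all tested genes were. Timp2, which inhibits MMPs and also takes part in the activation of pro-MMP2 by Mmp14, had 189, 193 and 168 CPM in A2B1 libraries 1 to 3, against 255, 294 and 238 CPM in control libraries 1 to 3 (log2 fold change -0.52, SE 0.11, adjusted p = 0.0727, and 0.00137 in DESeq2). Mmp2, Mmp14 and Timp2, the 3 parts of that activation complex, thus each had lower values in every A2B1 library than in any control. So did 15.5% of all tested genes, and none of the 3 passed the edgeR threshold. Divided by the fibroblast or the macrophage marker sum of the same library, as described below, each of the 3 had overlapping groups. Timp3, which binds to the matrix, averaged 396 ± 14.5 CPM in A2B1 libraries and 408 ± 92.1 CPM in controls (SD, n = 3 each; log2 fold change -0.04, SE 0.17, adjusted p = 0.904). Its count is uncertain, since Syn3 covers 21.3% of its exon bases from the other strand. Timp4, the TIMP abundant in heart and fat, had 177, 194 and 145 CPM in A2B1 libraries and 102, 115 and 307 CPM in controls. Control library 3 stood above all others, and the log2 fold change was -0.02 (SE 0.45, adjusted p = 0.98) with it and 0.66 (adjusted p = 0.121) without it. Timp1, an inhibitor induced in inflammation, had 125, 164 and 38 counts in A2B1 libraries and 239, 190 and 150 counts in controls (log2 fold change -0.69, SE 0.53, adjusted p = 0.459).

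To compare genes with each other, levels were divided by exon length (RPKM, CPM per kilobase of exon, from the combined exons of all GENCODE M21 transcripts). Timp2 was the highest member at a mean of 57.2 RPKM over the 6 libraries, followed by Timp3 at 49.4, Mmp2 at 37.2, Adamts5 at 31.9, Timp4 at 29.4, Mmp3 at 27.5 and Mmp19 at 27.5 RPKM. The ranges over libraries of neighbours in this order overlapped, so their order is not fixed by these data. It also differed between the groups: within A2B1 libraries Timp3 (48.6 RPKM) stood above Timp2 (47.1 RPKM), and Adamts5 (23.1 RPKM) was the lowest of the 7, while in controls Timp2 led at 67.3 RPKM and Adamts5 was the fourth at 40.7 RPKM. These 7 genes held 73.7% of the summed RPKM of all 51 members. Adamts2 came next at 13.1 RPKM, and its highest library (16.9 RPKM) lay below the lowest library of Mmp19 (23.2 RPKM), though not below the lowest of Mmp3 (14.4 RPKM). Mmp12 ranked 19th at 2.48 RPKM, with 0.524 to 1.02 RPKM in A2B1 libraries and 3.36 to 5.80 RPKM in controls. Its combined exon length of 7237 bases takes in several transcripts, which lowers its value on this scale. Summed over each family, MMPs had 112, 139 and 100.2 RPKM in A2B1 libraries and 154, 142 and 127 RPKM in controls, which overlapped. The ADAMTS sum was 63.6, 72.4 and 55.6 RPKM in A2B1 libraries, against 95.5, 89.3 and 90.3 RPKM in controls, without overlap. TIMPs summed to 127, 134 and 118 RPKM in A2B1 libraries and 123, 155 and 171 RPKM in controls. The ratio of the TIMP sum to the MMP sum was 1.14, 0.965 and 1.18 in A2B1 libraries and 0.802, 1.09 and 1.35 in controls, so the balance of inhibitor to protease transcripts overlapped between the groups.

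**Figure D5:**
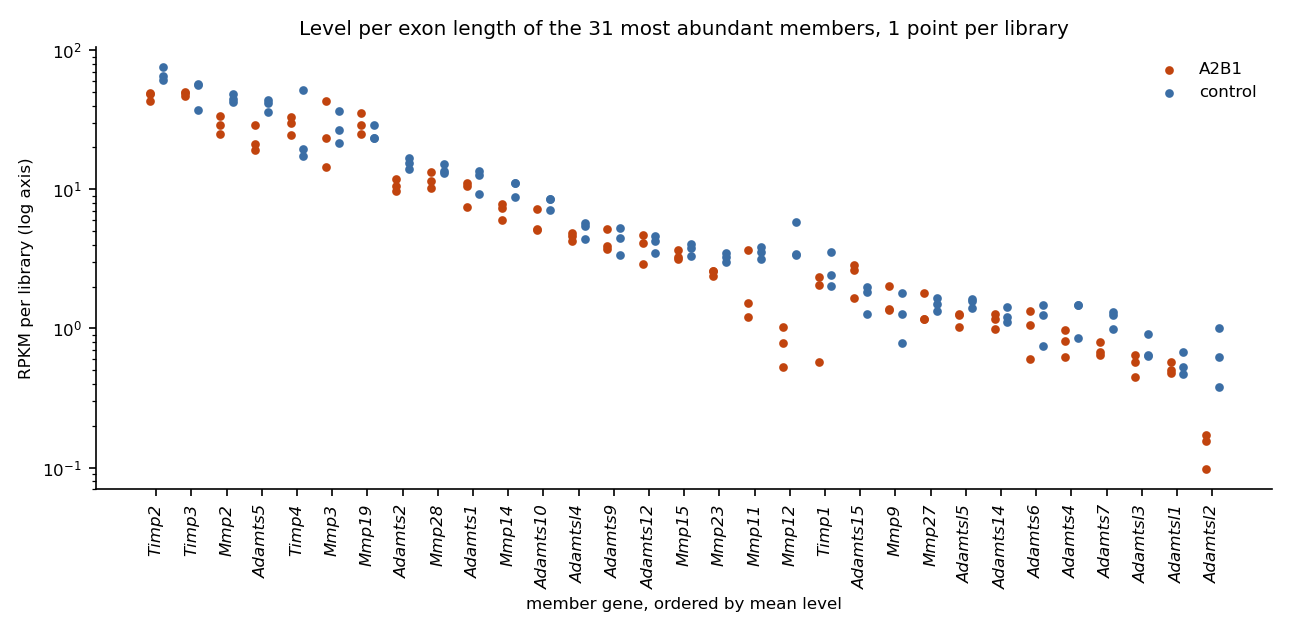
RPKM per library (points, log axis) of the 31 most abundant members, ordered by mean level, A2B1 left and control right within each gene. Timp2 and Timp3 lead at means of 57.2 and 49.4 RPKM, and the A2B1 points of Mmp12 and Adamtsl2 lie well below their control points.

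Several members are made mainly by stromal cells, so markers of those cells were set beside them. Fibroblast and progenitor markers (12 genes) summed to 3368, 4429 and 2516 CPM in A2B1 libraries and to 4303, 4127 and 3852 CPM in controls, with overlap, and 11 of 12 had negative log2 fold changes (edgeR and limma-voom called 0, DESeq2 5 lower, and 6 had an unadjusted p under 0.05). Mural and smooth muscle markers summed to 595 to 702 CPM in A2B1 libraries and 874 to 1330 CPM in controls, without overlap, with 7 of 10 negative (edgeR called 1 lower, DESeq2 5 lower and 1 higher). Endothelial markers summed to 960 to 1161 CPM in A2B1 libraries and 1089 to 1554 CPM in controls, with 8 of 10 negative (edgeR and limma-voom called 0, DESeq2 2 lower, and 5 had an unadjusted p under 0.05). Divided by the fibroblast sum of the same library, 5 of the 13 members with an unadjusted p under 0.05 had groups that did not overlap (Mmp12, Adamts5, Adamts16, Adamts17 and Adamtsl2), and 8 overlapped, Mmp2, Mmp14, Adamts2 and Timp2 among them. Of the 13, which were picked for their lower values, 12 had groups that did not overlap before division. Over all tested genes 4.95% were lower without overlap after this division. Col3a1 made up 1972, 2720 and 1396 CPM of the fibroblast sum in A2B1 libraries, and 2480, 2293 and 2173 CPM in controls. The ratios therefore lean on this gene. Mmp2, Mmp14, Adamts2 and Timp2 overlapped only through A2B1 library 3, which had the lowest fibroblast sum. Adamts5 had 67.7, 70.7 and 81.6 CPM per 1000 CPM of fibroblast markers in A2B1 libraries, against 110.5, 94.0 and 118 in controls, and Mmp2 had 25.1, 25.5 and 39.0 in A2B1 libraries and 35.0, 39.7 and 37.0 in controls. Divided by the macrophage sum, 2 of the 13 (Mmp12 and Adamts16) had groups that did not overlap and 11 overlapped, where 1.07% of all tested genes were lower without overlap. The macrophage sum was itself lower in every A2B1 library, so this division lifts the A2B1 values of every gene relative to controls. Neutrophil markers, which bear on Mmp8, Mmp9 and Mmp25, summed to 3.83 to 12.8 CPM in A2B1 libraries and 5.98 to 14.8 CPM in controls, with overlap. Of the 7 that were tested, 5 had positive log2 fold changes, with a median of 1.18, among them S100a9 (1.79) and Retnlg (2.28), while S100a8 had -2.28 (0 called by edgeR or limma-voom, 1 lower by DESeq2, and 1 lower and 1 higher with an unadjusted p under 0.05). The part of these cell types in the members' values was not tested beyond these ratios.

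Partners of the members were taken from lists of regulators, related proteases and substrates, 92 genes in all, of which 82 were tested. These lists were chosen with earlier results of these data known. Their counts are therefore descriptive, and the shares over all genes beside them are no independent test. Of these, 6 fell and 0 rose in edgeR, where 1.33% of all tested genes were called lower and 0.496% higher. An unadjusted p under 0.05 was found for 40 lower and 6 higher partner genes, against 12.7% and 11.5% of all tested genes. DESeq2 called 35 lower and 4 higher, against 8.29% and 6.96% of all genes. Values were negative for 66, with a median of -0.42, where 49.7% of all tested genes were negative. In the plasminogen system, whose protease plasmin activates several pro-MMPs, Plau (urokinase) fell to 30.4, 29.8 and 31.1 CPM in A2B1 libraries, against 63.8, 51.2 and 46.3 CPM in controls (log2 fold change -0.82, SE 0.13, adjusted p = 0.0402). Its receptor Plaur was also without overlap (log2 fold change -1.07, SE 0.33, adjusted p = 0.143). Plasminogen itself (Plg) had 328, 1.74 and 37.8 CPM in A2B1 libraries and 2.19 to 3.56 CPM in controls, and its inhibitor Serpinf2 and the protease-trapping Pzp were likewise highest in A2B1 library 1, at 71.8 and 663 CPM, with the liver markers. Among other regulators, the tetraspanin Cd9 fell (log2 fold change -0.65, SE 0.10, adjusted p = 0.0402), and Reck, a membrane inhibitor of MMPs, had -0.44 (SE 0.15, adjusted p = 0.161). The exons of Cd9 overlap Gm26728 on the other strand.

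Among 31 substrates 29 were tested, and 4 fell in edgeR, Nid2, Sparc, Hspg2 and Col4a2. Nid2 (nidogen 2) fell to 54.1, 60.8 and 53.0 CPM in A2B1 libraries, against 106 to 127 CPM in controls, with no overlap (log2 fold change -1.02, SE 0.10, adjusted p = 0.0234). Sparc, Hspg2 (perlecan) and Col4a2 fell by 0.97 (SE 0.11), 0.77 (SE 0.12) and 0.72 (SE 0.12) on the log2 scale, with adjusted p-values of 0.0251, 0.0433 and 0.044. Exons of Nid2 and Col4a2 overlap Rtraf and Col4a1 on the other strand. Elastin (Eln), the substrate of Mmp12, had 37.0, 48.9 and 43.9 CPM in A2B1 libraries, against 72.1, 113 and 69.5 CPM in controls (log2 fold change -0.97, SE 0.22, adjusted p = 0.0795). The large proteoglycan Vcan, which Adamts5 and Adamts1 cleave, stood at -0.39 on that scale (SE 0.40, adjusted p = 0.586), and Col1a1 and Col3a1, whose procollagens Adamts2 processes, had -0.08 (SE 0.22) and -0.19 (SE 0.24). In the 6 fits without 1 library, 5 of the 6 calls were lost each time, and Nid2 had adjusted p-values between 0.0442 and 0.0984. In edgeR the remaining 5 lists held 0 called genes. ADAM proteases had 9 of 10 negative values (4 with an unadjusted p under 0.05, 3 called lower by DESeq2, 0 by limma-voom), with Adam15 (-0.36, adjusted p = 0.118) and Adam10 (-0.38, adjusted p = 0.133) at the smallest p-values. Astacin proteases and their enhancers had 4 of 4 negative values (3 with an unadjusted p under 0.05, 3 called lower by DESeq2, 1 by limma-voom), led by Pcolce2 (-1.73, SE 0.32, adjusted p = 0.0631) and the procollagen C-proteinase Bmp1 (-0.47, SE 0.14, adjusted p = 0.128). Cathepsins had 4 of 4 negative values (3 with an unadjusted p under 0.05, 4 called lower by DESeq2, 2 by limma-voom), with Ctsl at -0.86 (adjusted p = 0.0529) and Ctsk at -0.87 (adjusted p = 0.0567). Microfibril and ADAMTS-related glycoproteins had 9 of 10 negative values (4 lower and 1 higher with an unadjusted p under 0.05, the same counts called by DESeq2, 0 by limma-voom), Mfap5 at -0.67 (SE 0.15, adjusted p = 0.0834) and Fbn1 at -0.97 (SE 0.24, adjusted p = 0.0966) among them, and Ltbp2 was the exception at 0.92 (SE 0.18, adjusted p = 0.064), with all 3 A2B1 libraries above the controls. Proprotein convertases, several of which activate membrane-anchored MMPs and ADAMTS proteases inside the cell, had 3 of 5 negative values (1 with an unadjusted p under 0.05, 0 called by DESeq2 or limma-voom). These were Furin at -0.08 (SE 0.10), Pcsk7 at -0.30 (SE 0.11, adjusted p = 0.172) and Mbtps1 at -0.17 (SE 0.10, adjusted p = 0.356). Pcsk5 at 0.21 (SE 0.21) and Pcsk6 at 0.03 (SE 0.12) were positive.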

How the data were processed

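RNA sequencing counts were analysed for 6 libraries of inguinal fat, 3 per group, with groups taken from the treatment in the labels. Per the labels' protocols, RNA was extracted with Trizol and libraries made with an Illumina TruSeq RNA kit. Bowtie and the mm10 build are named in the submitters' processing notes, without a role or a program version. What counted the reads, with which annotation, filters and strand, was not given in the sources used here. Values deposited by the authors are raw counts of reads for each gene, whole numbers with different totals per library. The values 1, 2, 3 and 4 occur 8211, 6699, 7257 and 3493 times, so the numbers may be rounded estimates, and genes with overlapping exons are uncertain. Total counts were 72961324 to 86663359 per library. The precision of the fold changes rests also on the spread between the 3 libraries of a group.

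In R 4.3.3, genes kept by filterByExpr of edgeR 4.0.16 (at least 10 counts in enough libraries, 15 in total) were tested with TMM scaling and the robust quasi-likelihood F test with no covariate, followed by Benjamini-Hochberg adjustment over all 19146 tested genes. The SE is the log2 fold change divided by the square root of F. DESeq2 1.42.0 and limma-voom (limma 3.58.1) with quality weights were alternatives, as were other scalings, other filters, a threshold of 0.1 and fits that omit each library. The scripts were tested on simulated counts. All 51 members matched GENCODE M21 by gene ID. For a repeated symbol the ID with most counts was used. Named were all tested members, with values per library where the unadjusted p was under 0.05, members too low to test by their counts, called partner genes, and otherwise the 2 with the smallest p per partner list. Other partner genes, and per-library values of other members, were chosen after their values were seen. Members and lists were chosen with earlier results of these data known. Splicing was not analysed here.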

Additional observations from a re-analysis of the deposited data

How the results depend on the processing

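Of all tested genes 95 were called higher and 254 lower. With library totals only 49 were higher, with the CPM filter 147, with limma-voom 164, with an adjusted p of 0.1 472 (and 798 lower) and with DESeq2 1332 (and 1587 lower). Without 1 library 2 to 12 were higher and 7 to 45 lower, without A2B1 library 1 and control library 1 2 and 5, and without A2B1 libraries 1 and 3 0 and 0. Members called lower, 1 in the main test, were 2 with limma-voom, 3 with the CPM filter (Mmp12, Adamts16 and Adamtsl2), 8 at an adjusted p of 0.1, 10 with DESeq2, and 0 to 0 without 1 library and 0 without either pair. Mmp12 kept its call under the other scalings, filters and tools and lost it in all 8 fits with fewer libraries, where fewer samples enter. Partner genes called lower, 6 in the main test, were 10 with the CPM filter, 11 with limma-voom, 17 at an adjusted p of 0.1 (1 higher), 35 with DESeq2 (4 higher), 0 to 1 without 1 library and 0 without either pair. Among the alternative values of the 41 tested members, 32 changed sign, all of members that were not called. With limma-voom Adamts13 had -0.81 and Timp4 0.14. Without A2B1 library 1 and control library 1, Adamts13 had -0.92, Adamts6 0.25 and Mmp3 0.26. Without A2B1 libraries 1 and 3, a fit in which the lone A2B1 library is assumed to vary like the controls, Adamts12 had 0.21, Adamts6 0.23, Adamtsl1 0.048, Mmp27 0.30, Mmp3 0.64, Timp4 0.17 and Adamts13, with 0 counts left, a fitted -6.45 that is no bound. Without 1 library, ranges that cross 0 were -0.22 to 0.11 (Adamts12), -0.96 to 1.33 (Adamts13), -0.39 to 0.020 (Adamts18), -0.48 to 0.06 (Adamts6), -0.19 to 0.13 (Adamts9, and -0.35 without A2B1 library 1 and control library 1), -0.22 to 0.055 (Adamtsl1), -0.59 to 0.0026 (Mmp17), -0.36 to 0.011 (Mmp27), -0.57 to 0.25 (Mmp3), -0.22 to 0.068 (Timp3) and -0.29 to 0.66 (Timp4, and -0.32 without A2B1 library 1 and control library 1). The cause was not tested. No paired analysis was possible because the numbers in the library titles are not shared between the groups. Adamts8, Adamts17 and the members too low to test rest on few counts, and intervals of counting error were not drawn for them. The fits without 2 libraries and the liver list were chosen after seeing the data.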
